A study of Mus musculus with 2 samples.

Results

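Molecular chaperones and heat shock proteins were compared between naive gamma/delta and naive CD8+ alpha/beta T cells of C57BL/6 mouse lymph nodes. The members were chosen by gene symbol and not by their values, although earlier results of these data were known. They are the Hsp90, Hsp70, Hsp110 and small heat shock protein genes and the J proteins of classes A, B and C. The mitochondrial chaperonin and the cytosolic chaperonin TRiC complete them. The rule found 80 of the 18193 genes that could be named on the array, read by 196 of its 45101 probe sets. Hsp90ab1, the constitutive Hsp90 of the cytosol, was matched to no probe set and was not analysed here, so the Hsp90 family is 2 genes. There were 2 samples, 1 preparation of gamma/delta cells labelled as CD44- and 1 of CD8+ alpha/beta cells, both obtained by negative selection and each measured on 1 Affymetrix MOE430 2.0 array. The labels name no genotype beyond the C57BL/6 strain, no treatment, no age and no number of mice.

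With 1 array per group, no replicate error and no p-value can be given, and every ratio compares these 2 preparations. Signals are linear MAS5 units. A signal of 243.3, the higher of the medians of the arrays, served as a floor, and a ratio whose other side lay under it is a bound, written "at least". Each gene is given by the probe set whose mean log2 signal was highest. The only spread available is the disagreement among probe sets of a gene, with a pooled SD of 0.42 on the log2 scale over 29 chaperone genes and 0.50 over 3317 genes of all kinds.

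The defining receptor genes followed the labels. Trgv4, a gamma chain variable segment, read 12522 in gamma/delta cells against 170.4 in alpha/beta cells, while Cd8a read 731.1 and 8852. Of 5 T cell markers all were above the floor on both arrays. Of 5 B cell markers 2 were above it in gamma/delta cells against 1 in alpha/beta cells, with summed signals of 1420 and 1184, and none of 2 NK and 3 erythroid and platelet markers was above it on either array. Of 6 myeloid markers 1, Itgam, was above it in alpha/beta cells alone. The ratio of 3′ to 5′ signal for actin, a measure of RNA integrity, was 6.99 for gamma/delta and 3.12 for alpha/beta cells. That for Gapdh was 3.06 and 3.24, and that for the transferrin receptor 3.97 and 4.47, so only actin was higher in gamma/delta cells. In such bulk samples, a change in the share of cells and a change in RNA per cell cannot be told apart.

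Chaperones bind unfolded proteins and help them reach their native form. Hsp70 proteins work in cycles of ATP hydrolysis that J proteins start, Hsp90 proteins act late on kinases and receptors, and chaperonins enclose a substrate in a ring. Cytosolic chaperones are induced through heat shock factors that bind heat shock elements, whereas chaperones of the endoplasmic reticulum (ER) are induced by the unfolded protein response, through the factors ATF6 and XBP1, as in lymphocytes that prepare to secrete.

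Most chaperone genes read alike in both cell types, and the larger differences lay mainly on the gamma/delta side, in ER chaperones and in single J proteins. Of the 80 genes, 61 had a ratio and 19, read by the probe set used, lay under the floor on both arrays. Past 2-fold on the gamma/delta side were 7 of 61, which is 11.5%, against 5.82% of all 11914 genes with a ratio. Past 2-fold on the alpha/beta side were 2 of 61, or 3.28%, against 3.93%. At 1.5-fold the counts were 15 higher and 7 lower, 24.6% and 11.5% of the members, beside 17.0% and 13.2% of all genes. Log2 ratios, here always of the gamma/delta over the alpha/beta signal, had a median of 0.00 over chaperone genes and 0.03 over all genes. No test of these shares was made. The members nearest to the 2-fold call were Dnajc4 (at least 0.96 on the log2 scale), Hspb11 (0.93) and Dnaja3 (0.91) outside it, and Dnaja4 (-1.02 or lower) and Dnajc15 (-1.04) inside it.

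**Figure D1:**
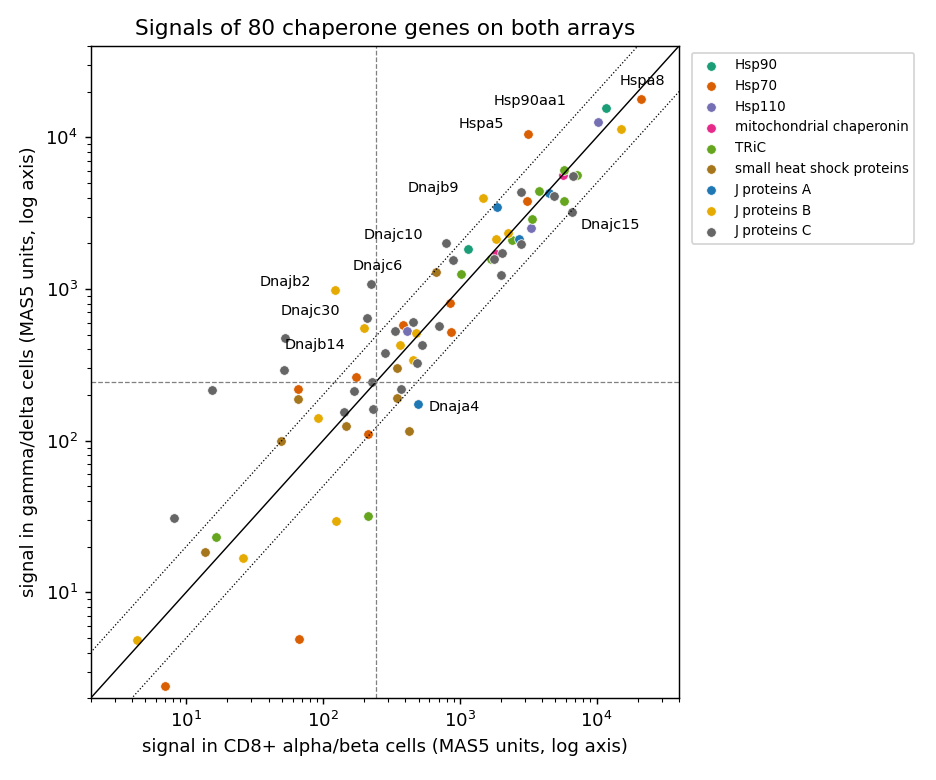
Signals of 80 chaperone genes on the alpha/beta array (horizontal) and the gamma/delta array (vertical), both log axes in MAS5 units, coloured by family; 1 point is 1 gene by the probe set used. The solid line marks equal signals, the dotted lines 2-fold, and the dashed lines the floor of 243.3; Hspa5 stands above the upper dotted line at 10543 against 3125, and Dnajc15 just below the lower one at 3201 against 6600.

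**Figure D2:**
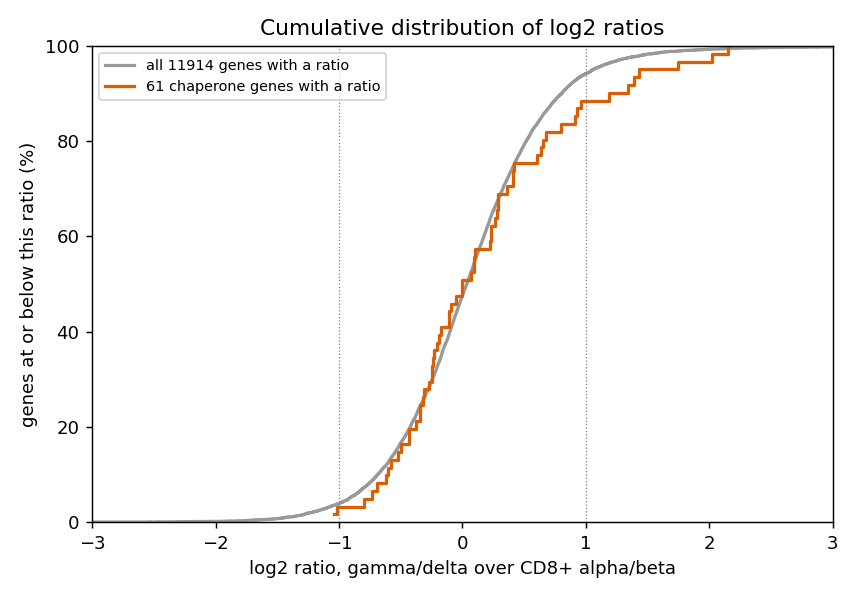
Cumulative share of genes (percent) at or below each log2 ratio, for 61 chaperone genes (orange) and all 11914 genes with a ratio (grey), with dotted lines at 2-fold; the axis is cut at 3 on either side. The curves run together at the centre, with medians of 0.00 and 0.03, and part on the right, where 11.5% of chaperone genes and 5.82% of all genes lie at or beyond 2-fold.

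Among ER chaperones, 5 of 6 stress-inducible genes had a ratio above 0, as did 6248 of all 11914 genes, and 2 of the 6 were past 2-fold, beside 5.82% of all genes. These 6 genes were listed with earlier results of these data known. Averaging probe sets, dim ones included, left 4 of 6 above 0. Hspa5, which encodes BiP, the Hsp70 of the ER, read 10543 in gamma/delta cells against 3125 in alpha/beta cells, 3.37-fold higher in gamma/delta. A second probe set of Hspa5 read 6839 against 3065, a log2 ratio of 1.16, and the third lay under the floor on both arrays at 198.7 and 26.3. Both informative probe sets therefore placed Hspa5 past 2-fold in the same direction. Dnajb9 (ERdj4), a J protein that works with BiP and is induced by the unfolded protein response, read 3999 and 1488, which is 2.69-fold higher in gamma/delta cells on its 1 probe set. Hsp90b1, which encodes GRP94, the Hsp90 of the ER, read 1822 and 1140, and its second probe set gave 1812 and 1134. Both probe sets of Hsp90b1 had a log2 ratio of 0.68.

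The remaining ER genes were smaller or divided. Dnajc3 (P58IPK), a J protein of the ER lumen, read 4354 and 2803, a log2 ratio of 0.64, while its 5 probe sets ran from -0.21 to 0.83. Of these 5, 3 lay above 0 and 2 below. With probe sets averaged the value of Dnajc3 was -0.12, but that average takes in a dim probe set that read 65.7 and 260.5. Its direction thus rests on the choice of probe set. Dnajb11 (ERdj3), which binds nascent chains with BiP, read 2147 and 1841, a ratio of 1.17. Hspa13, a microsomal Hsp70-like ATPase, went the other way at 521.4 and 867.3, a log2 ratio of -0.73, with 3 probe sets from -0.73 to 0.27. Over the 6 genes of this ER stress-inducible list, 5 lay above 0 and 1 below, 2 were at least 2-fold higher, and the median log2 ratio was 0.66 beside 0.03 for all genes. Without these 6, the chaperone genes had a median of -0.05 over 55, with 5 at least 2-fold higher and 2 lower. Those counts are 9.09% and 3.64%, beside 5.82% and 3.93% of all genes.

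Dnajc10 (ERdj5), an ER protein that reduces disulphide bonds, stands outside that list and read 2018 and 798.9, 2.53-fold higher in gamma/delta cells. Its second probe set read 618.9 and 613.7, a log2 ratio of 0.01, and with probe sets averaged the value of Dnajc10 was 0.31. Other J proteins of the ER membrane were closer to 0 or bounds. Dnajc1 and Dnajc25 had log2 ratios of 0.42 and 0.41, and Dnajb12 one of 0.09. Dnajc14 had 0.80, while Dnajc16 went the other way at 325.6 and 485.6, a log2 ratio of -0.58. Sec63, an ER membrane J protein whose symbol lies outside the rule, had -0.59, with probe sets from -0.78 to 1.16. Dnajb14, also of the ER membrane, read 555.3 against 200.6, at least 2.28-fold higher in the gamma/delta preparation, and had a bound of only 0.31 under a floor raised to the 70th percentile.

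Promoter sequences are shown for the 3 ER chaperone genes that hold an ER stress response element, because all 3 were higher in gamma/delta cells by the probe set used. The element searched was CCAAT followed, after 9 bases, by CCACG, on both strands, in the 250 bases before each RefSeq transcript start (GRCm38.p6), a search chosen after the ratios were seen. Capitals mark the match, and each sequence runs 5′ to 3′ on the strand of its gene. The Hspa5 window lies at chr2:34771840-34772089 on the + strand, the Hsp90b1 window at chr10:86705445-86705694 on the - strand, and the Dnajc3 window at chr14:118937682-118937931 on the + strand.
Hspa5: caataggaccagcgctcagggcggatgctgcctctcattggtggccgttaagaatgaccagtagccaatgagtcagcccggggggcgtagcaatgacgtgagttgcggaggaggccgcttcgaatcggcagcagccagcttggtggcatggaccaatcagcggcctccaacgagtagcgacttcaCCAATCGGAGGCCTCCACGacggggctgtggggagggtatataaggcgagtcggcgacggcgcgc
Hsp90b1: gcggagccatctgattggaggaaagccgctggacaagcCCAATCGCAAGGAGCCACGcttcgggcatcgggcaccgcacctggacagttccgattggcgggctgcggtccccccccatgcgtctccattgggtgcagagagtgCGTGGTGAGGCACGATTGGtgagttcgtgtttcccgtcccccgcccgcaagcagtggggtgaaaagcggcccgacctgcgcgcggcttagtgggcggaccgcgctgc
Dnajc3: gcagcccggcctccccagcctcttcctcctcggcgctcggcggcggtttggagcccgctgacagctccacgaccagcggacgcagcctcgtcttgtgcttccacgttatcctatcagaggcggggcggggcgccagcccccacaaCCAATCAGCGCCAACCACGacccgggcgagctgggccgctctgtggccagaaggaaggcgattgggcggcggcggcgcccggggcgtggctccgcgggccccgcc

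The match in Hspa5 begins 65 bases before the start and that in Dnajc3 105 bases before it, while Hsp90b1 holds 2 matches, beginning 212 and 107 bases before it, in opposite orientations. Of 66 chaperone genes with a promoter in the RefSeq table, these 3 held the element (4.55%), against 35 of 27025 genes in the whole table (0.130%). The 3 had log2 ratios of 1.75, 0.68 and 0.64. Among 45 co-chaperone genes with a promoter, Calr, Canx, Pdia6 and Creld2 held the element too. Calr and Canx, lectin chaperones of the ER, had log2 ratios of -0.11 and 0.12, Pdia6 had -0.41 and Creld2 lay under the floor on both arrays. A match is a description of letters in the window, and Dnajb9 and Dnajc10 held none.

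**Figure D3:**
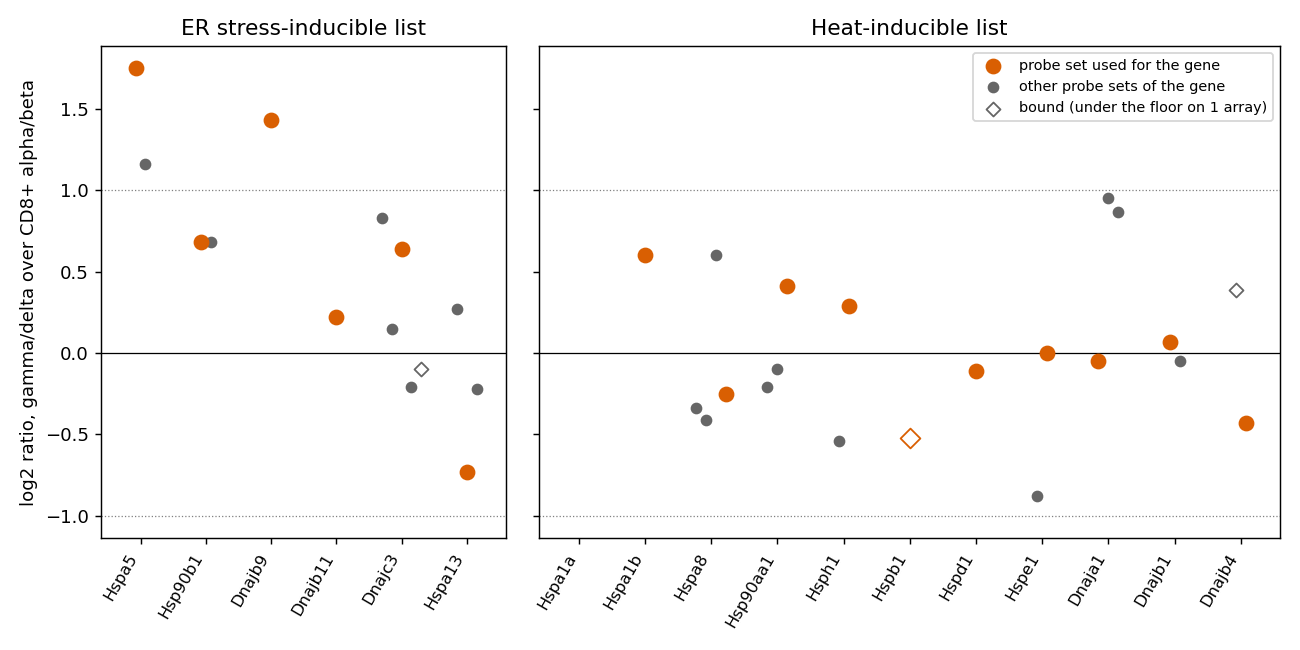
Log2 ratio of gamma/delta over alpha/beta signal (vertical) for each probe set with a ratio of 6 ER stress-inducible genes (left) and 11 heat-inducible genes (right). Large orange symbols are the probe sets used, small grey ones the others, open diamonds bounds, and dotted lines 2-fold; both probe sets of Hspa5 lie above 1, those of Hsp90b1 coincide in height at 0.68, and no probe set of the heat-inducible genes reaches 2-fold (Hspa1a has no ratio).

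Heat-inducible chaperones, mostly of the cytosol, lay on both sides of 0. Of 11 such genes, 10 had a ratio, 5 above 0 and 5 below, with a median log2 ratio of -0.02, and none was at least 2-fold apart in either direction. Hspa1b, the strictly inducible Hsp70, read 580.8 in gamma/delta cells against 384.4 in alpha/beta cells, a ratio of 1.51. Its other 2 probe sets, and the 1 of Hspa1a, lay under the floor on both arrays. Hspa1a and Hspa1b are near-identical copies, so their probes may not separate them. Hspa8, the constitutive Hsc70, read 17783 and 21113, a log2 ratio of -0.25, and the 4 probe sets ran from -0.41 to 0.60. Hsp90aa1, the inducible cytosolic Hsp90, read 15479 and 11648, a log2 ratio of 0.41, while its other 2 probe sets gave -0.21 and -0.10. No direction can be given for Hspa8 or Hsp90aa1, whose values changed sign with the probe sets used. Without suffixed probe sets (_a_at, _s_at, _x_at), which can detect several transcripts, the values were 0.60 and -0.21. The 0.60 of Hspa8 came from a dim probe set that read 389.7 and 256.6, near the floor, while its 3 others lay below 0.

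The Hsp110 proteins exchange the nucleotide of Hsp70 and help it to dissolve aggregates. Hsph1 read 12556 and 10246, a log2 ratio of 0.29, and 250.1 and 364.7 on its second probe set, a ratio of -0.54. Hspa4 had a log2 ratio of -0.38 and Hspa4l one of 0.36, with probe sets on both sides of 0 in each. Among the other Hsp70 genes, Hspa9, the mitochondrial Hsp70, read 3793 and 3121, a ratio of 1.22, and Hspa14, a ribosome-associated Hsp70, read 804.3 and 853.7. Hspa12a lay at 261.4 and 174.0, a bound of 0.10. Hspa5 was thus the 1 gene of 7 in the Hsp70 family past 2-fold (14.3%, beside 5.82% of all genes). The family median was 0.10, but -0.10 over 5 genes with probe sets averaged and 0.44 over 4 genes without suffixed probe sets.

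Heat shock elements are shown for 3 inducible genes to set beside these ratios. Capitals mark GAANNTTC or TTCNNGAA, each of which is its own reverse complement and so reads the same on both strands. The Hsph1 stretch lies at chr5:149636337-149636396, the Hspa1b stretch at chr17:34959309-34959368 and the Hspd1 stretch at chr1:55088053-55088082, all on the - strand (GRCm38.p6).
Hsph1: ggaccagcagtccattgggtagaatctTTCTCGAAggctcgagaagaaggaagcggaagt
Hspa1b: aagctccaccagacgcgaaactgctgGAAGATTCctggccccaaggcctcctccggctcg
Hspd1: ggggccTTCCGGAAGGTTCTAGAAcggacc

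In Hspd1, 3 overlapping matches form one run, and Hspe1, which is transcribed the other way from the same region, holds the element in its own window. The element was in the 250 bases before a start in 17 of 66 chaperone genes (25.8%) and in 14.5% of all genes. Hspa8 and Hsp90aa1 were not among the 66, having no promoter in the RefSeq table, and Dnajb1 held no match. Holding the element thus does not set the heat-inducible genes apart here. The 14 members with the element and a ratio had a median log2 ratio of -0.08, and the 36 without it 0.10. Of the 14, Dnajc10 was past 2-fold upward in gamma/delta cells and Dnaja4, a bound, past it downward. That is 7.14% each way, beside 5.82% and 3.93% of all genes. Of the 36 without the element, 13.9% were past it upward and 2.78% downward.

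The chaperonins showed small ratios. Hspd1 (Hsp60), the ring of the mitochondrial matrix, read 1688 and 1825, a log2 ratio of -0.11. Hspe1 (Hsp10), its lid, read 5673 and 5656, a log2 ratio of 0.00, while its second probe set read 1166 and 2138, a log2 ratio of -0.88. TRiC, which folds actin and tubulin, was measured for all 8 subunits. Their log2 ratios ran from -0.60 for Tcp1 to 0.29 for Cct5, with a median of -0.15, 3 above 0 and 5 below, and none was 2-fold apart. Tcp1 read 3771 in gamma/delta cells against 5735 in alpha/beta cells, and Cct2 read 5672 and 7198, lower on all 3 of its probe sets. Cct6a (-0.23) and Cct7 (-0.11) were lower on both of theirs, and Cct8 (0.23) and Cct5 were higher on the 1 probe set with a ratio. Cct3 (-0.19) and Cct4 (0.09) had probe sets of either sign. The related genes Cct6b and Cct8l1 lay under the floor on both arrays.

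**Figure D4:**
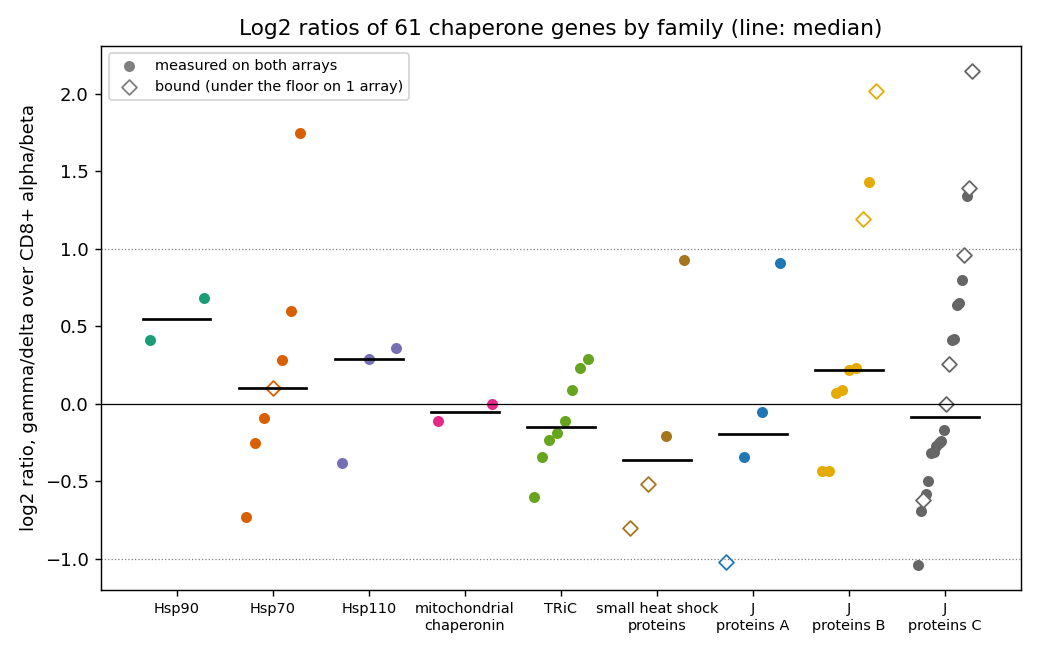
Log2 ratio of gamma/delta over alpha/beta signal (vertical) for 61 chaperone genes, grouped by family (horizontal); filled circles were measured on both arrays, open diamonds are bounds, black lines are family medians and dotted lines mark 2-fold. TRiC stays between -0.60 and 0.29, while J proteins of class C spread from -1.04 to 2.15.

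J proteins, which deliver substrates to Hsp70 and start its ATPase, varied widely. Class A showed 1 gene at the call. Dnaja1 and Dnaja2, general partners of cytosolic Hsp70, read 4312 and 4475 and 2132 and 2696 in gamma/delta and alpha/beta cells. All 3 probe sets of Dnaja2 with a ratio were lower, from -0.86 to -0.34, but averaging its probe sets, a dim one included, gave 0.56. The other 2 probe sets of Dnaja1 had log2 ratios of 0.87 and 0.95, so that its value of -0.05 depends on the probe set used. Dnaja3 (Tid1), of mitochondria, read 3478 and 1856, a log2 ratio of 0.91, with its other probe sets at 0.44 and -0.29. Dnaja4 read 174.5, under the floor, against 493.6, at least 2.03-fold lower in the gamma/delta preparation, and its bound shrank to -0.14 under a floor raised to the 70th percentile.

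In class B, 3 of 9 genes with a ratio passed 2-fold on the gamma/delta side and none on the other, beside 5.82% and 3.93% of all genes. Dnajb2 and Dnajb14 among them are bounds on 1 probe set with a ratio. Beside Dnajb9 and Dnajb14 this was Dnajb2 (HSJ1), which hands clients to the proteasome. Dnajb2 read 988.7 in gamma/delta cells against 122.8 on the 1 probe set it has, at least 4.06-fold higher. Dnajb1 (Hsp40), the heat-inducible partner of Hsp70, read 2351 and 2239, a ratio of 1.05. Dnajb6, a suppressor of aggregation, read 11270 and 15156, a log2 ratio of -0.43, with 1 of 4 probe sets above 0. Dnajb4 had -0.43 as well, and Dnajb5 0.23, each with probe sets of both signs.

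In class C, a diverse group whose members often serve 1 process, 3 of 22 genes passed 2-fold upward and 1 downward (13.6% and 4.55%, beside the same 5.82% and 3.93%). Dnajc6 (auxilin), which uncoats clathrin vesicles and is best known from neurons, read 1078 against 223.8, at least 4.43-fold higher in the gamma/delta preparation. Its other probe sets with a ratio gave bounds of 0.66 and 0.08, and the averaged value was 0.38. The related gene Gak, the auxilin of most tissues, read 2163 and 2074. Dnajc30, a mitochondrial J protein, read 639.8 against 209.9, at least 2.63-fold higher, and its bound shrank to 0.52 under that raised floor. Dnajc15 (MCJ), of the mitochondrial inner membrane and a restraint on respiratory complex I, read 3201 in gamma/delta cells against 6600 in alpha/beta cells. That is 2.06-fold lower in gamma/delta cells on its 1 probe set, well above the floor on both arrays, and its log2 ratio was -0.97 after quantile normalization and -0.94 after loess.

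The other class C genes did not reach the 2-fold call, although bounds such as that of Dnajc4 (472.4 against 52.4) set no upper limit. Dnajc5, the cysteine string protein of vesicles, read 1242 and 2003, a log2 ratio of -0.69, and was lower in gamma/delta cells on all 4 probe sets with a ratio. Dnajc7, which bridges Hsp70 and Hsp90, read 1984 and 2808 (-0.50). Dnajc13, of endosomes, Dnajc8, of the spliceosome, and Dnajc9, a histone chaperone, had log2 ratios of -0.25, -0.27 and -0.24. Dnajc14, Dnajc11 and Dnajc4 stood at 0.80, 0.65 and at least 0.96, the last 2 on 1 probe set each, while the second of Dnajc14 was a bound of -0.01.

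Small heat shock proteins, which hold unfolded proteins without ATP, were mostly near or under the floor. Of 8 genes 4 had a ratio, 2 of them as bounds. Hspb1 (Hsp27) read 191.5 and 349.0 and Hspb2 115.2 and 424.4, lower in gamma/delta cells by at least 1.43-fold and 1.74-fold, and Hspb3 read 303.2 and 349.9. Hspb11 read 1284 and 673.8, a ratio of 1.91, with log2 ratios of 0.93 and 0.94 on its 2 probe sets. Its product is also known as IFT25, a subunit of ciliary transport, so it stands apart from the family whose symbol it carries. Genes best known from testis (Hspa1l, Hspa2, Dnajb3, Dnajb8, Dnajb13, Cct6b, Hspb9) or from muscle (Hspb6, Hspb7) were among the 19 under the floor on both arrays. Hspb2 and Hspb3, also best known from muscle, were not, so the floor does not set such genes apart. Another probe set of Hspb7 read 6.54 and 254.6, a bound of -0.07.

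Across all families, 34 genes could be read by at least 2 probe sets with a ratio, and 22 of them had probe sets on both sides of 0, while 5 had all above and 7 all below. The 5 included Hspa5, Hsp90b1, Hspb11, Dnajc6 and Dnajc10, and the 7 included Cct2, Dnaja2, Dnajc5 and Dnajc8. Of the 9 genes past 2-fold, 5 are bounds and 5 were read by 1 probe set with a ratio.

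Co-chaperones and stress regulators outside the rule were read from a separate list. Of 46 such genes with a ratio, 2 passed 2-fold on the gamma/delta side (4.35%) and none on the alpha/beta side, no more than the 5.82% and 3.93% of all genes, with a median log2 ratio of 0.07. Xbp1, a transcription factor of the unfolded protein response, read 644.9 and 284.2, 2.27-fold higher, and all 4 of its probe sets lay above 0, from 0.47 to 1.18. Under the raised floor the Xbp1 value was a bound of 0.53. Fkbp5, an immunophilin of the Hsp90 complex induced by glucocorticoids, read 1022 against 226.0, at least 4.20-fold higher, on the 1 of its 3 probe sets with a ratio. The ER genes Hyou1, an Hsp70-like exchange factor for BiP, and Manf, a secreted ER stress protein, had log2 ratios of 0.79 and 0.75, each on 1 probe set with a ratio. Herpud1, also of the ER, had probe sets from -0.67 to 0.38, and Pdia4 and Sil1 lay under the floor on both arrays. Atf4 and Ddit3, of the PERK branch of the unfolded protein response, had -0.59 and 0.04, and Sdf2l1 lay at 191.4 and 287.8, a bound of -0.24. The abundant folding enzymes Pdia3 and P4hb had 0.11 and 0.32. Among prefoldin subunits, which pass actin and tubulin to TRiC, Pfdn1 had 0.88 and Vbp1 -0.74, with the others between.

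Other genes moved beside these values. Of 11 immediate early genes with a ratio, 8 passed 2-fold on the gamma/delta side (72.7%, beside 5.82% of all genes) and none on the other, with a median log2 ratio of 2.02, while the 10 heat-inducible chaperones had a median of -0.02. Because plasma cells are rich in ER chaperones, 6 of their markers were read after the data were seen. Of these, Sdc1 read 820.1 in gamma/delta cells against 160.5 in alpha/beta cells, Jchain 467.9 and 320.3, Prdm1 343.5 and 566.0, Derl3 109.6 and 318.7, Tnfrsf17 219.1 and 264.4, and Mzb1 18.5 and 139.5. The Sdc1 value is a bound, and its 4 probe sets ran from -0.14 to 1.75 on the log2 scale, 1 of them below 0. Above the floor were 3 of the 6 markers in gamma/delta cells against 4 of 6 in alpha/beta cells, with summed signals of 1979 and 1769. The part of the immediate early genes, of plasma cell RNA and of the actin 3′ to 5′ ratio in the ER result was not tested.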

How the data were processed

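RNA of 2 samples was hybridised to 1 Affymetrix MOE430 2.0 array each, after labelling by the one-cycle protocol, per the labels' protocols. The deposited values are linear intensities per probe set, which the authors made in Affymetrix Expression Console 1.0 by the MAS5 method (per the submitters' own processing notes). The trimmed mean of each deposited array, with 2% left out at either end, was 500.003, so no scaling was added. Low MAS5 signals are noisy, because a mismatch estimate is taken from each. Detection calls were not analysed here.

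A platform annotation gave probe sets their symbols, and those with several symbols, none or a control role name no gene. All 80 chaperone genes were found in RefSeq with the same symbol. The floor was the 50th percentile of probe sets that are not controls (243.3), signals under it were raised to it, and a gene was called at 2-fold. Named genes are all members with a ratio outside the J proteins, J proteins at least 2-fold apart or among the 5 highest signals of a class, the heat- and ER stress-inducible lists, and co-chaperones at least 2-fold apart. Others were named after their values were seen. The members and lists were chosen with earlier results of these data known. No test was possible with 1 array per group, whose number limits the precision.

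Alternatives were median scaling, quantile and loess normalization (span 0.3), floors at the 30th and 70th percentile, no floor with a pseudocount of 16, probe sets averaged, probe sets with the suffixes _a_at, _s_at or _x_at left out, and a 1.5-fold call. Such probe sets can detect several transcripts or related genes. Averaging took in probe sets under the floor. The planned comparison of protein sequences was not made here. Promoters came from a RefSeq table (GRCm38.p6), of which the 250 bases before each start were read. Python 3.11.15, pandas 2.3.3, numpy 2.4.6 and statsmodels 0.14.6 were used.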

Additional observations from a re-analysis of the deposited data

Results flagged for a closer look

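Some signal stood outside the comparison. Of 3 probe sets that the annotation assigns jointly to Dnajc19, a J protein of the mitochondrial import motor, and its pseudogene Dnajc19-ps, 2 were above the floor. They read 741.7 in gamma/delta cells against 824.4 in alpha/beta cells, and 1427 and 1538, log2 ratios of -0.15 and -0.11. No group held enough samples to look for a sample far from the others.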

How the results depend on the processing

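No paired analysis was possible because each group holds 1 array, and for the same reason no replicate could be left out. Median scaling changed no count. The 7 genes past 2-fold on the gamma/delta side became 12 of 80 with no floor, 4 of 50 with probe sets averaged, 4 of 49 without suffixed probe sets, and 15 at a 1.5-fold call. The share of all genes was then 14.0%, 4.80%, 5.33% and 17.0%, so with no floor the chaperone share was close to that of all genes. The 2 past it on the other side became 1 of 61 after quantile normalization and after loess. That count was 1 of 52 under a floor at the 70th percentile and 1 of 50 with probe sets averaged. It was 6 of 80 with no floor and 7 of 61 at 1.5-fold. The share of all genes on that side was then 4.02%, 3.78%, 3.73%, 3.37%, 12.3% and 13.2%, in that order. The median log2 ratio of chaperone genes was 0.09 under a floor at the 30th percentile, 0.08 with no floor and -0.11 with probe sets averaged. The median of the ER stress-inducible list, 0.66, was 0.45 with probe sets averaged and 0.43 over the 4 genes left without the suffixed probe sets, where Hspa5 and Hsp90b1 have no ratio. It kept at least 1 gene past 2-fold under every alternative run. The co-chaperone list had a median of -0.05 with probe sets averaged. The immediate early list had 2.24, 1.32 and 2.18 under a floor at the 30th percentile, at the 70th and under none. The causes were not tested, beyond the fewer or more genes with a ratio that a floor or a choice of probe sets leaves. Of 362 values of named genes under the alternatives, 337 moved by less than the probe set SD of 0.50 and 25 by more, and no gene past 2-fold changed sign, whereas smaller ratios such as those of Hsp90aa1, Hspa8, Dnaja2 and Dnajc3 did. Averaging probe sets left 5 of the 9 called genes past 2-fold and 2 without a ratio, and a floor at the 70th percentile left 6. Weak signals limit Dnajb2, Dnajb14, Dnajc6, Dnajc30 and Dnaja4, each under the floor on 1 array.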
